A study of Mus musculus with 12 samples.

Results

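The genes described here are 53 ligands, receptors, inhibitors and intracellular components of the canonical Wnt pathway. They were taken by gene symbol from the deposited table of 51490 genes, in which all 53 were found. RNA-seq was performed on immortalized mouse embryonic palatal mesenchyme (iMEPM) cells, a line from the mesenchyme of a Cdkn2a-/- embryo, in 4 groups of 3 cultures. Scramble cultures carried a non-targeting shRNA and shSrsf3 cultures an shRNA against Srsf3, which encodes an RNA-binding protein of splicing, and each line was studied without ligand (-PDGF-AA) and after a 1 hr exposure to PDGF-AA at 10 ng/mL (+PDGF-AA). Both lines were made with lentivirus, selected in puromycin, sorted for GFP and used at passages 9 to 20. Each shRNA is thus 1 stable line made with 1 construct, and an effect of Srsf3 cannot be told apart from any other difference between these 2 lines. The deposited labels number the cultures 1 to 3 within a group, and the study calls them biological replicates, so p-values measure the spread between cultures of 1 line.

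Wnt ligands are secreted, lipid-modified proteins that bind a Frizzled receptor together with the co-receptor Lrp5 or Lrp6 at the cell surface. Without ligand, Axin, Apc and the kinase Gsk3b mark β-catenin for degradation. With ligand, Dishevelled proteins help to disable that complex, and β-catenin accumulates and acts in the nucleus with Tcf and Lef factors. Several genes switched on by this pathway, Axin2, Nkd1, Notum and Apcdd1 among them, encode inhibitors of it, so their transcripts are often used as readouts. In the developing face, Wnt genes are used by both the epithelium and the mesenchyme of the palate.

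The libraries held 30958966 to 76123359 expected counts each, the 3 shSrsf3 +PDGF-AA libraries being among the 4 lowest. Srsf3 read 199 to 212 CPM (counts scaled to the library total) in scramble -PDGF-AA cultures and 161 to 164 CPM in shSrsf3 -PDGF-AA cultures, and 215 to 231 CPM against 161 to 170 CPM with ligand, so the targeted transcript was lower in every shSrsf3 culture (log2 fold change -0.34 ± 0.04 (SE) and -0.43 ± 0.04). Counts across genes were compared within each group. Among the scramble cultures without ligand, replicates 1 and 2 were close to each other and apart from replicate 3. With ligand, replicate 2 was apart from replicates 1 and 3. The study's methods list lower mapping rates for 3 libraries, namely scramble replicates 1 and 2 without ligand and scramble replicate 2 with ligand. Values without them are given where they change a call. A list of 11 mesenchyme markers, 1 of them at 0 in every library, summed to 40283 to 42095 CPM in scramble and 35720 to 38605 CPM in shSrsf3 cultures, whereas lists for epithelium (9 genes), endothelium (5), blood (5) and muscle (5) each summed to at most 6.25 CPM. Endothelium markers summed to 0.762 to 1.22 CPM in scramble and 2.46 to 2.83 CPM in shSrsf3 cultures, epithelium markers to 4.81 to 6.25 and 2.94 to 4.25 CPM, and 5 neural and glial markers to 29.0 to 32.3 and 20.6 to 25.1 CPM. The part of these lists in the results below was not tested.

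In the 250 bases before the start of the canonical transcript of each gene, the letters CTTTGA, the core recognized by Tcf and Lef factors, occurred on either strand for 8 of the 53 genes (15.1%), and for 3073 of 21770 protein coding genes (14.1%). The 8 were Apcdd1, Axin2, Nkd1, Notum, Gsk3b, Lrp6, Tcf7l1 and Wif1. The 7 windows below, of 30 bases each from the GRCm39 genome on the strand of the gene, are shown because they set 3 genes that fell in shSrsf3 cultures (Axin2, Nkd1, Notum) beside 4 that changed little or were not tested. Apcdd1 also fell, with its match at -152, and its window is not shown here. Capitals mark the match, which is read on the opposite strand in Gsk3b and Tcf7l1.
Axin2: ctcggctcgcgcCTTTGAagtgcacagtta
Nkd1: cgtccgcctcgcCTTTGAtgggccgctgcc
Notum: tgtccgccgccgCTTTGAtcccgggggccc
Lrp6: gccgcaatggcaCTTTGAttttcctacgtc
Gsk3b: cttctccccgccTCAAAGagggaggggagg
Tcf7l1: gctcaacttgttTCAAAGtgtcacaaaatc
Wif1: aacggaatttatCTTTGAccacgaatcgag

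The windows lie at chr11:108811604-108811633 (Axin2), chr8:89247887-89247916 (Nkd1), chr11:120552055-120552084 (Notum), chr6:134544301-134544330 (Lrp6), chr16:37909274-37909303 (Gsk3b), chr6:72766701-72766730 (Tcf7l1) and chr10:120869625-120869654 (Wif1). The first base of the match lay 22 bases before the transcript start in Axin2, 26 in Nkd1, 53 in Notum, 77 in Gsk3b, 106 in Lrp6, 129 in Tcf7l1 and 228 in Wif1. The genes with a 2-fold change described below held the letters in 4 of 13 cases and the remaining genes in 4 of 40. These counts describe letters only, and the members were compared in no test.

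Of the 53 genes, 47 passed the filter on low counts and were tested. The 6 that did not were Wnt3 (1 read in 1 library), Wnt7b (0 to 12 counts per library), Fzd10 (0 in all 12), Wif1 (0 to 3), Dkk1 (0 to 2) and Lef1 (0 to 3). Lef1 and Dkk1 encode a nuclear partner of β-catenin and a secreted Lrp inhibitor. A count of 0 allows a level of up to 0.0388 to 0.0966 CPM, depending on the library. Wnt2b, Sfrp4, Frzb, Notum and Sostdc1 passed the filter although they met its cutoff in fewer than 3 of the 6 libraries of one line, so for these 5 genes the filter itself depended on a difference.

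Levels of different genes were compared as CPM per kb of exon. In scramble -PDGF-AA cultures, 30 of the 53 genes reached 1 CPM per kb and 13 reached 10 CPM per kb, and with the length of the longest transcript these counts were 30 and 15. The highest member of each role was Wnt16 among ligands (6.35 ± 0.298 CPM per kb, SD, n = 3), Wls among the proteins of ligand release (24.7 ± 0.625), Fzd2 among Frizzled receptors (50.5 ± 1.62), Lrp6 among Lrp receptors (21.8 ± 0.672), Sfrp1 among secreted inhibitors (75.3 ± 6.22), Kremen1 of the 2 membrane inhibitors (3.03 ± 0.253), Ctnnb1 in the cytoplasm (71.7 ± 2.74) and Tcf7l1 in the nucleus (14.6 ± 1.25). Among the 53 genes, Frizzled receptors thus stood well above ligands per length, but ligands outside the 53, such as Wnt5a and Wnt5b, were not counted. The summed level was 145 ± 5.27 CPM per kb for the 10 Frizzled genes and 14.1 ± 0.397 CPM per kb for the 11 ligands. Sfrp1, a secreted protein that binds Wnt ligands, and Ctnnb1, which encodes β-catenin, were the highest of the 53 genes, with ranges over the 3 cultures that overlapped. Their order depended on the length used, since with the longest transcript Ctnnb1 stood at 119 and Sfrp1 at 78.1 CPM per kb.

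**Figure D1:**
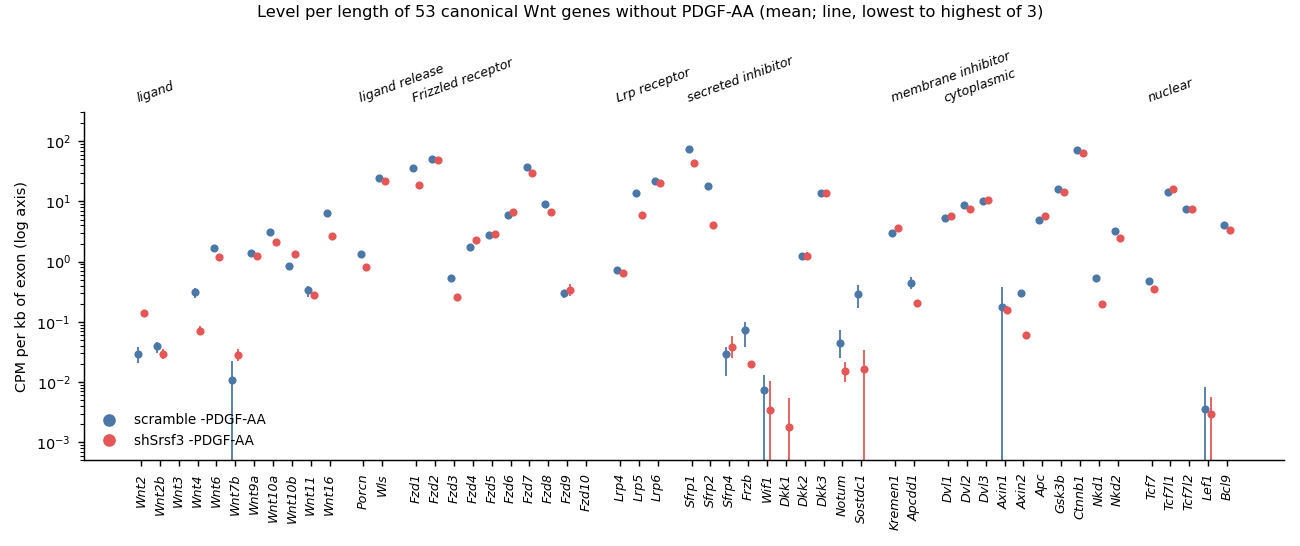
Level per length of the 53 genes in -PDGF-AA cultures, in CPM per kb of exon on a log axis, for scramble (blue) and shSrsf3 (red). Points are means and lines run from the lowest to the highest of 3 cultures. A line that reaches the axis includes a culture at 0, and a gene at 0 in all 3 cultures has no point. Sfrp1 and Ctnnb1 lie highest, and the ligands, led by Wnt16, lie below 10 CPM per kb.

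shSrsf3 cultures were compared with scramble cultures in the absence of ligand and, in separate cultures, upon ligand stimulation. Without PDGF-AA, 25 of the 47 genes tested were lower and 7 were higher in shSrsf3 cultures (edgeR quasi-likelihood test, adjusted p of 0.05 or less). Over all 15037 genes tested, 23.7% were lower and 22.2% higher. With a change of 2-fold or more added to the rule, 11 genes were lower and 1 was higher, against 2.76% and 2.99% of all genes. Wnt4, Wnt16, Fzd3, Lrp5, Sfrp2, Frzb, Notum, Sostdc1, Apcdd1, Axin2 and Nkd1 were the 11 that fell, and Wnt2 was the 1 that rose. Of the 11, Frzb, Notum and Sostdc1 met the cutoff of the filter in 0 of 6 shSrsf3 libraries. They entered the test through the scramble libraries, so they lend no weight to the comparison with all genes. The median log2 fold change was -0.19 over the 47 genes and -0.016 over all genes tested.

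With PDGF-AA, 22 of the 47 were lower and 8 higher by adjusted p, where 20.7% and 20.3% of all genes were. By the 2-fold rule 12 were lower and 1 higher, against 2.57% and 2.85%. These 13 were the same 12 genes as without ligand and Fzd1, so the limit set by the filter for Frzb, Notum and Sostdc1 holds here too. The share of all genes called by the 2-fold rule in both comparisons was not computed, so nothing is read from the 12 that recur. The median log2 fold change was -0.26 for the 47 genes and -0.010 over all genes. By adjusted p, 27 of the 47 were called in both comparisons, all 27 in the same direction (21 lower and 6 higher), 5 only without ligand, 3 only with it and 12 in neither. Over all genes tested, 33.7% were called in both, 99.9% of these in the same direction, 50.3% being lower and 49.7% higher in both. The comparisons share no culture but they compare the same 2 lines. The 3 libraries of lower mapping rate were also left out, which leaves 1 scramble -PDGF-AA library. Apcdd1 (log2 fold change -0.79) and Notum (-0.59) then fell short of 2-fold without ligand. With ligand, Fzd1 (-0.99) and Frzb (-0.95) did so. The remaining genes of the 2-fold calls kept a change of 2-fold or more. Axin1 stood at 9.01 without ligand because the 1 library left was listed at 0 for it. Among genes with a mean count of 50 or more, 8 were called by the 2-fold rule without ligand and 9 with it, all lower. The share of all genes at that mean count was not computed, so nothing is read from these counts or their direction.

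**Figure D2:**
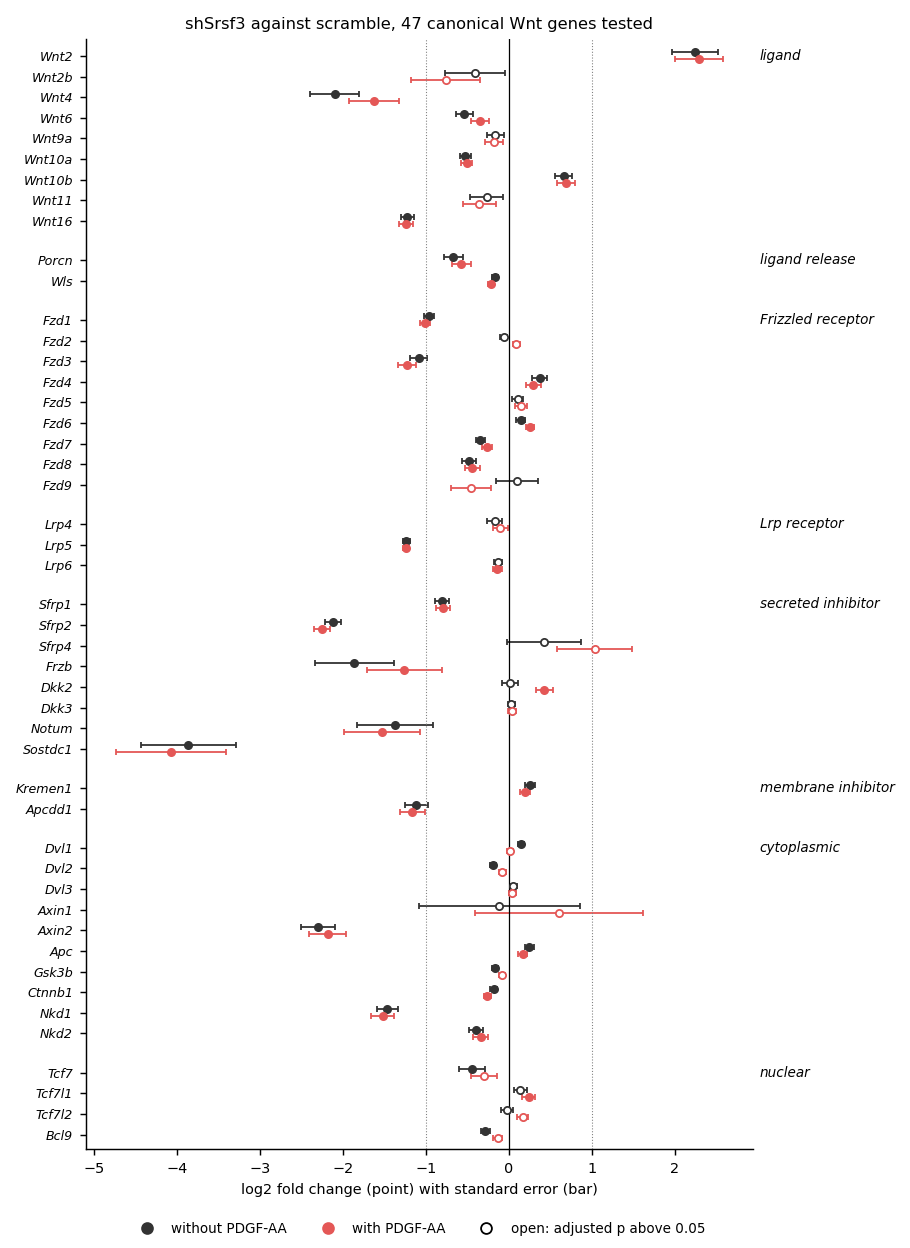
Log2 fold change of shSrsf3 against scramble for the 47 genes tested, by role, without PDGF-AA (black) and with PDGF-AA (red). Bars are standard errors, filled points have an adjusted p of 0.05 or less, and dotted lines mark a 2-fold change. Wnt2 lies furthest to the right at 2.24 and 2.29, and Sostdc1 furthest to the left at -3.86 and -4.07.

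The ligands changed in both directions. Of 9 tested, 4 were lower and 2 higher in shSrsf3 cultures by adjusted p, with and without PDGF-AA, and the same 6 genes were called each time. Of all genes tested, 23.7% were lower and 22.2% higher without ligand, so the 2 of 9 that were higher are near the background. Wnt16, the most abundant of these ligands per length, read 27.2, 26.8 and 29.2 CPM in scramble -PDGF-AA cultures and 12.1, 11.8 and 11.6 CPM in shSrsf3 -PDGF-AA cultures. In the presence of ligand it read 24.4, 21.7 and 25.1 CPM against 10.9, 10.7 and 8.46 CPM. The highest shSrsf3 culture thus lay below the lowest scramble culture under both conditions. Wnt16 was 2.34-fold lower without ligand (log2 fold change -1.23 ± 0.08 (SE), adjusted p = 3.7e-08, edgeR) and 2.36-fold lower with it (-1.24 ± 0.08, adjusted p = 6.3e-08, edgeR).

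Wnt4, which often acts outside the β-catenin branch, read 1.82, 1.26 and 1.62 CPM in scramble -PDGF-AA and 0.337, 0.425 and 0.322 CPM in shSrsf3 -PDGF-AA cultures. With PDGF-AA the cultures read 1.49, 1.84 and 1.61 CPM against 0.24, 0.743 and 0.644 CPM. The groups did not overlap, although the first shSrsf3 +PDGF-AA culture, with 9 counts, stood well below the other two. The change was 4.28-fold without ligand (log2 fold change -2.10 ± 0.30, adjusted p = 6.95e-05, edgeR) and 3.08-fold with it (-1.62 ± 0.30, adjusted p = 0.000671, edgeR). The transcripts of Wnt4 shared 5.09% of their 31-base sequences with other genes, the highest share among the 53 genes.

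Wnt2 was the gene that rose. Scramble -PDGF-AA cultures held 10, 21 and 21 counts (0.26, 0.483 and 0.348 CPM) and shSrsf3 -PDGF-AA cultures 147, 106 and 63 counts (1.9, 1.61 and 1.69 CPM). With PDGF-AA, the values were 0.349, 0.177 and 0.402 CPM against 1.5, 1.83 and 1.29 CPM. All 6 shSrsf3 cultures were above all 6 scramble cultures. The rise was 4.74-fold without ligand (log2 fold change 2.24 ± 0.28, adjusted p = 2.18e-05, edgeR) and 4.89-fold with it (2.29 ± 0.28, adjusted p = 2.3e-05, edgeR), from a level that stayed below 2 CPM.

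A further 3 ligands passed the test with smaller changes. Wnt10b rose from 4.33 ± 0.206 to 6.86 ± 0.335 CPM (SD, n = 3) without ligand, a log2 fold change of 0.66, and by 0.69 with it. Wnt10a fell by 0.52 and 0.51, and Wnt6 by 0.54 and 0.35, on the log2 scale. Wnt2b, Wnt9a and Wnt11 were called in neither comparison, and their log2 fold changes ran from -0.76 for Wnt2b with ligand to -0.16 for Wnt9a without it. Wnt16 made up 45.0 ± 0.925% of the summed ligand level per length in scramble -PDGF-AA cultures and 29.6 ± 0.438% in shSrsf3 -PDGF-AA cultures. Wnt10b made up 6.03 ± 0.285% and 14.7 ± 0.871%. The summed level itself was 14.1 ± 0.397 against 9.17 ± 0.125 CPM per kb without ligand, and 13 ± 0.36 against 8.85 ± 0.292 CPM per kb with it. In bulk RNA, fewer cells that express a gene and less RNA per cell cannot be told apart.

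Both genes of ligand release were lower in shSrsf3 cultures by adjusted p, where 23.7% of all genes were lower without ligand and 20.7% with it. Porcn encodes the enzyme that attaches the lipid to Wnt proteins, and Wls the carrier that takes them to the surface. Porcn fell from 8.92 ± 0.943 to 5.59 ± 0.457 CPM without ligand, a log2 fold change of -0.67 ± 0.11 (adjusted p = 0.000264, edgeR), and by 0.57 with it. Wls, the more abundant of the 2 per length, read 333, 329 and 345 CPM in scramble -PDGF-AA and 298, 299 and 303 CPM in shSrsf3 -PDGF-AA cultures. With PDGF-AA it read 351, 330 and 353 CPM against 305, 297 and 292 CPM. The groups did not overlap, yet the change was small, with log2 fold changes of -0.16 ± 0.04 (adjusted p = 0.00233, edgeR) and -0.21 ± 0.04 (adjusted p = 0.000365, edgeR).

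Among the Frizzled receptors, which bind the ligands, 4 of 9 tested were lower and 2 higher in shSrsf3 cultures by adjusted p, and the same 6 were called in both comparisons. Here too the share that was higher is near that of all genes (22.2% without and 20.3% with ligand), of which 23.7% and 20.7% were lower. Fzd3 read 7.53, 6.48 and 7.38 CPM in scramble -PDGF-AA and 3.65, 3.01 and 3.41 CPM in shSrsf3 -PDGF-AA cultures. With PDGF-AA it read 7.06, 7.02 and 7.99 CPM against 3.47, 2.94 and 2.96 CPM. Every shSrsf3 culture thus lay below every scramble culture, at 2.12-fold (log2 fold change -1.09 ± 0.10, adjusted p = 1.51e-06, edgeR) and 2.35-fold (-1.23 ± 0.11, adjusted p = 8.24e-07, edgeR).

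Fzd1, a far more abundant receptor per length (36.0 ± 0.349 against 0.539 ± 0.0429 CPM per kb in scramble -PDGF-AA cultures), changed by almost as much. It read 153, 150 and 150 CPM in scramble -PDGF-AA and 76.2, 80.1 and 76.8 CPM in shSrsf3 -PDGF-AA cultures. With ligand it read 137, 142 and 136 CPM against 74.2, 70.8 and 60.7 CPM. The log2 fold change was -0.96 ± 0.06 without ligand (adjusted p = 2.11e-08, edgeR), just inside a 2-fold change, and -1.01 ± 0.06 with ligand (adjusted p = 1.59e-08, edgeR), just outside it. Without shSrsf3 +PDGF-AA replicate 3 the latter was -0.93, and without scramble +PDGF-AA replicate 2 it was -0.99.

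Fzd2, the most abundant receptor per length, did not pass the test in either comparison. It read 187, 190 and 178 CPM in scramble -PDGF-AA and 180, 171 and 181 CPM in shSrsf3 -PDGF-AA cultures. The +PDGF-AA cultures read 165, 171 and 157 CPM against 183, 176 and 166 CPM. These groups overlapped under both conditions, and the log2 fold changes were -0.06 ± 0.05 (adjusted p = 0.285, edgeR) and 0.09 ± 0.05 (adjusted p = 0.133, edgeR).

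Of the remaining receptors, Fzd7 (-0.34 and -0.26) and Fzd8 (-0.48 and -0.44) were lower and Fzd4 (0.37 and 0.30) and Fzd6 (0.14 and 0.25) higher by adjusted p, as log2 fold changes without and with ligand. Fzd5 (0.10 and 0.14) and Fzd9 (0.10 and -0.45) were not called. Fzd1 fell from 24.9 ± 0.816% to 16.0 ± 0.741% of the summed Frizzled level per length without ligand and from 25.1 ± 0.086% to 14.7 ± 0.692% with it. Fzd2 moved from 34.9 ± 0.284% to 41.8 ± 0.651% and from 34.2 ± 0.969% to 43.0 ± 0.426%. The summed Frizzled level was 145 ± 5.27 against 116 ± 2.51 CPM per kb without ligand and 131 ± 2.35 against 111 ± 6.49 CPM per kb with it. Fzd1, Fzd2 and Fzd7 are closely related genes, and 1.61% of the 31-base sequences of Fzd1 and 1.90% of those of Fzd2 were shared with other genes.

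Of the 2 co-receptors of canonical signaling, Lrp5 fell by more than 2-fold in both comparisons. Lrp5 read 134, 137 and 135 CPM in scramble -PDGF-AA and 57.6, 54.8 and 59.9 CPM in shSrsf3 -PDGF-AA cultures. With ligand it read 133, 138 and 130 CPM against 57.3, 56.8 and 55.7 CPM. Lrp5 had the smallest adjusted p of the 47 genes in both comparisons, and its cultures lay close together within each group. It was 2.35-fold lower without ligand (log2 fold change -1.23 ± 0.04, adjusted p = 8.63e-11, edgeR) and 2.36-fold lower with it (-1.24 ± 0.04, adjusted p = 8.1e-11, edgeR).

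Lrp6, the more abundant co-receptor per length, read 340, 325 and 345 CPM in scramble -PDGF-AA and 298, 298 and 328 CPM in shSrsf3 -PDGF-AA cultures. With PDGF-AA it read 302, 323 and 321 CPM against 303, 287 and 269 CPM. One shSrsf3 culture overlapped the scramble cultures under each condition. The log2 fold changes were -0.13 ± 0.05 (adjusted p = 0.0506, edgeR) and -0.14 ± 0.05 (adjusted p = 0.0437, edgeR), on opposite sides of the threshold but of like size. Lrp5 made up 37.9 ± 1.03% of the level per length of the 3 Lrp genes in scramble -PDGF-AA cultures and 22.1 ± 0.501% in shSrsf3 -PDGF-AA cultures, and 39.2 ± 0.902% and 23.1 ± 0.754% with ligand. Lrp4, a relative that binds other ligands and Wnt inhibitors, was called in neither comparison (-0.17 and -0.10).

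Of the 8 secreted inhibitors tested, 5 fell without ligand by adjusted p and 5 fell with it, and 4 of them, Sfrp2, Frzb, Notum and Sostdc1, did so by the 2-fold rule in both. Of all genes tested, 23.7% were lower without ligand and 20.7% with it by adjusted p, and 2.76% and 2.57% by the 2-fold rule. Frzb, Notum and Sostdc1 met the cutoff of the filter in 0 of 6 shSrsf3 libraries and entered the test through the scramble libraries, so the count says little about the role, and Sfrp1 and Sfrp2 are the calls free of this. Sfrp2, a soluble protein with a Frizzled-like domain that binds Wnt ligands, read 41.9, 42.3 and 40.7 CPM in scramble -PDGF-AA and 10.0, 9.95 and 8.51 CPM in shSrsf3 -PDGF-AA cultures. With ligand it read 38.7, 42.0 and 36.5 CPM against 8.28, 9.66 and 6.66 CPM. The lines were separated by a wide gap, 4.34-fold without ligand (log2 fold change -2.12 ± 0.09, adjusted p = 9.14e-10, edgeR) and 4.75-fold with it (-2.25 ± 0.10, adjusted p = 1.14e-09, edgeR).

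Sfrp1, of the same family and the most abundant secreted inhibitor per length, read 386, 376 and 329 CPM in scramble -PDGF-AA and 206, 212 and 209 CPM in shSrsf3 -PDGF-AA cultures. With PDGF-AA it read 330, 367 and 321 CPM against 211, 209 and 167 CPM. It was lower in every shSrsf3 culture, by less than Sfrp2, with log2 fold changes of -0.80 ± 0.08 (adjusted p = 3.82e-06, edgeR) and -0.79 ± 0.08 (adjusted p = 4.62e-06, edgeR). Sfrp1 made up 69.2 ± 1.79% and 69.0 ± 0.517% of the summed level per length of the secreted inhibitors in scramble and shSrsf3 -PDGF-AA cultures, whereas Sfrp2 was 16.7 ± 0.677% and 6.59 ± 0.583%. The atypical family member Dkk3 was 12.6 ± 1.21% and 22.3 ± 0.428%, at log2 fold changes of only 0.03 and 0.04 that did not pass the test. The summed level of the 10 secreted inhibitors was 109 ± 6.4 against 62.7 ± 0.44 CPM per kb without ligand and 102 ± 6.24 against 59.2 ± 6.26 CPM per kb with it.

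Sostdc1, which encodes a secreted antagonist of both Wnt and BMP signaling, had the largest fold change. Its counts were 28, 24 and 18 in scramble -PDGF-AA and 2, 4 and 0 in shSrsf3 -PDGF-AA cultures, and 34, 31 and 33 against 0, 2 and 1 with ligand. The shSrsf3 counts were at or near 0 in every culture. Over the summed counts, scramble exceeded shSrsf3 by 14.8 times without ligand (exact 95% interval of counting error 6.46 to 41.6) and 18.2 times with it (6.03 to 89.6). The fitted log2 fold changes of -3.86 ± 0.57 (adjusted p = 0.000108, edgeR) and -4.07 ± 0.66 (adjusted p = 0.000246, edgeR) depend on the prior count for such low values.

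Frzb, another Frizzled-like inhibitor, had counts of 11, 6 and 22 in scramble -PDGF-AA and 6, 4 and 3 in shSrsf3 -PDGF-AA cultures, and 13, 27 and 21 against 4, 4 and 6 with ligand. Scaled by library size, these groups did not overlap. Frzb passed the test without ligand (log2 fold change -1.86 ± 0.47, adjusted p = 0.00579, edgeR) and narrowly with it (-1.26 ± 0.45, adjusted p = 0.0385, edgeR). The latter call was lost without scramble +PDGF-AA replicate 2 (adjusted p = 0.141) or 3 (0.0666) and without shSrsf3 +PDGF-AA replicate 1 (0.134) or 2 (0.105), over 19 alternatives whose adjusted p ran from 0.0205 to 0.141. DESeq2 lost this call as well (adjusted p = 0.086), as did edgeR with no filter on low counts (adjusted p = 0.0621). Without the 3 libraries of lower mapping rate the log2 fold change of Frzb with ligand was -0.95.

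Notum, an enzyme that removes the lipid from Wnt proteins, was the least abundant gene called, with 7, 17 and 8 counts in scramble -PDGF-AA and 9, 5 and 2 in shSrsf3 -PDGF-AA cultures. With ligand the counts were 21, 18 and 19 against 3, 4 and 4. Its log2 fold changes were -1.37 ± 0.46 (adjusted p = 0.0248, edgeR) and -1.53 ± 0.46 (adjusted p = 0.0167, edgeR). Without scramble -PDGF-AA replicate 2 the former was -0.80 (adjusted p = 0.232), and the call was also lost without shSrsf3 -PDGF-AA replicate 2 (0.0773) or 3 (0.0661), while the latter was lost without shSrsf3 +PDGF-AA replicate 1 (0.0747). DESeq2 lost the call without ligand (adjusted p = 0.0541), as did edgeR with only the 2 groups compared (adjusted p = 0.0695). Thinning all libraries to the smallest total lost the call with ligand (adjusted p = 0.056, edgeR). Without the 3 libraries of lower mapping rate the log2 fold change of Notum was -0.59 without ligand (adjusted p = 0.494) and -1.53 with it (adjusted p = 0.0145).

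No decrease was called for the remaining secreted inhibitors. Dkk2 was called with ligand alone (0.43 ± 0.10, adjusted p = 0.00378, edgeR), at 0.01 ± 0.10 without it, and the test of the difference between these changes gave an adjusted p of 0.806. Sfrp4 had log2 fold changes of 0.42 and 1.04 that did not pass. Of the 2 membrane inhibitors, Kremen1, a receptor for Dkk proteins and the higher of the 2 per length, rose a little. It read 36.1, 36.9 and 42.0 CPM in scramble -PDGF-AA and 45.4, 43.7 and 48.9 CPM in shSrsf3 -PDGF-AA cultures, and 39.9, 36.9 and 39.6 CPM against 45.6, 45.1 and 43.0 CPM with ligand. The groups did not overlap, at log2 fold changes of 0.26 ± 0.06 (adjusted p = 0.00313, edgeR) and 0.20 ± 0.06 (adjusted p = 0.0177, edgeR).

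Apcdd1, which encodes a membrane protein that binds Wnt ligands and Lrp receptors, fell. It read 9.09, 6.74 and 5.65 CPM in scramble -PDGF-AA and 3.34, 3.31 and 3.17 CPM in shSrsf3 -PDGF-AA cultures. With PDGF-AA it read 6.43, 7.0 and 7.11 CPM against 3.34, 3.07 and 2.74 CPM. The scramble -PDGF-AA cultures were spread widely but all lay above the shSrsf3 cultures, with log2 fold changes of -1.11 ± 0.14 (adjusted p = 2.76e-05, edgeR) and -1.16 ± 0.15 (adjusted p = 3.26e-05, edgeR). Without scramble -PDGF-AA replicate 1 the former was -0.91, short of 2-fold, with an adjusted p of 2.42e-05, and without the 3 libraries of lower mapping rate it was -0.79.

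**Figure D3:**
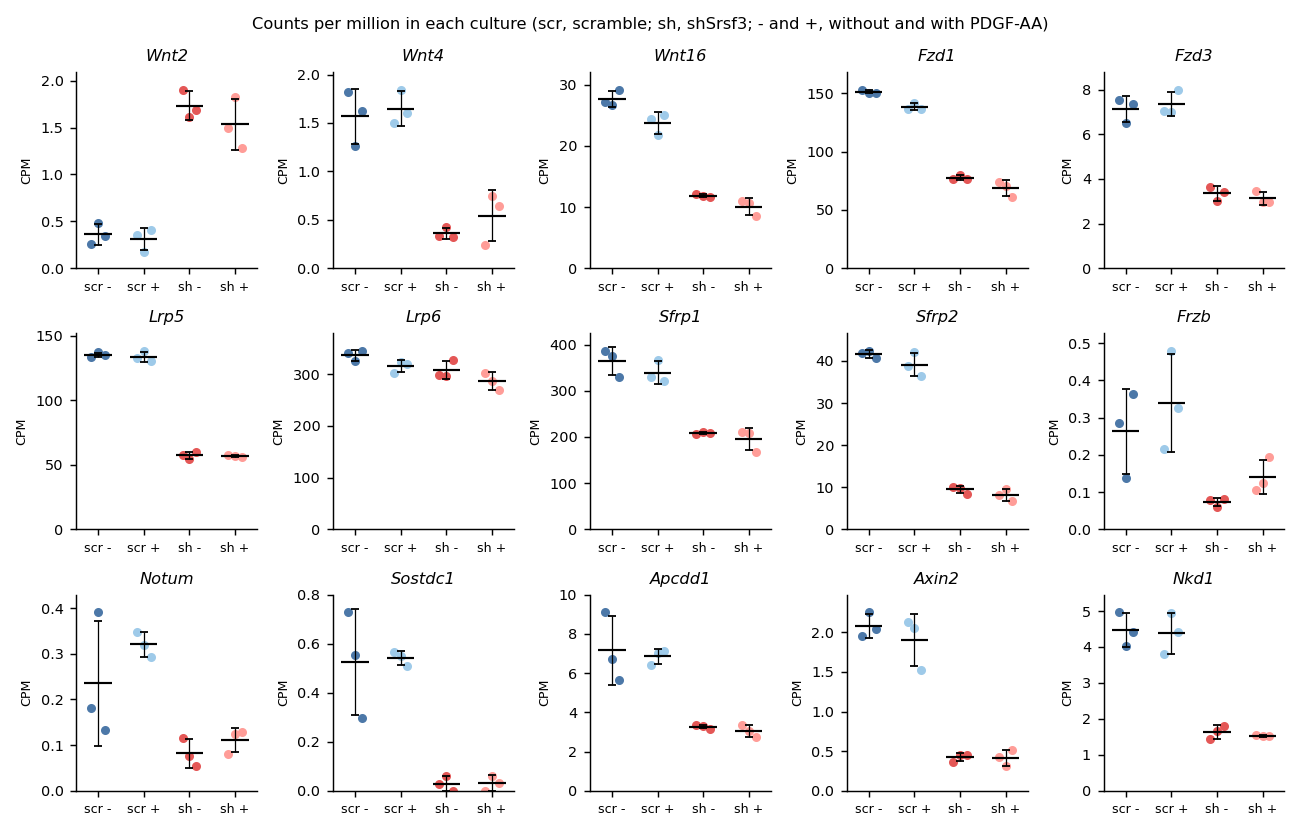
CPM in each culture for the 13 genes with a 2-fold change in either comparison and for Sfrp1 and Lrp6, on linear axes from 0. Points are cultures, horizontal lines are means and bars are SD (n = 3). Wnt2 is higher in all 6 shSrsf3 cultures, Lrp5, Sfrp2, Axin2 and Nkd1 are lower in all 6, and Lrp6 lies close to its scramble level.

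In the cytoplasm, 6 of 10 genes were lower and 2 higher without ligand, and 4 were lower and 1 higher with it, where 23.7% of all genes were lower and 22.2% higher without ligand and 20.7% and 20.3% with it. The 2 that changed by 2-fold were Axin2 and Nkd1, feedback inhibitors whose transcription canonical Wnt signaling raises in many tissues. Axin2 read 1.95, 2.25 and 2.04 CPM in scramble -PDGF-AA and 0.363, 0.456 and 0.456 CPM in shSrsf3 -PDGF-AA cultures. Upon ligand stimulation it read 2.13, 2.06 and 1.53 CPM against 0.428, 0.31 and 0.515 CPM. Every shSrsf3 value was thus far below the lowest scramble value. The decrease was 4.93-fold without ligand (log2 fold change -2.30 ± 0.21, adjusted p = 1.05e-06, edgeR) and 4.54-fold with it (-2.18 ± 0.22, adjusted p = 3.89e-06, edgeR).

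Nkd1, which binds Dishevelled, read 4.96, 4.02 and 4.43 CPM in scramble -PDGF-AA and 1.44, 1.67 and 1.8 CPM in shSrsf3 -PDGF-AA cultures. With PDGF-AA it read 3.8, 4.94 and 4.41 CPM against 1.55, 1.52 and 1.51 CPM. The groups were again apart, by 2.76-fold (log2 fold change -1.46 ± 0.13, adjusted p = 1.04e-06, edgeR) and 2.87-fold (-1.52 ± 0.14, adjusted p = 1.42e-06, edgeR). Its relative Nkd2 was lower by less (-0.39 and -0.34), and both values passed the test.

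The core of the destruction complex and β-catenin itself changed by smaller amounts. Ctnnb1 read 575, 571 and 611 CPM in scramble -PDGF-AA and 516, 521 and 511 CPM in shSrsf3 -PDGF-AA cultures, and 618, 573 and 605 CPM against 514, 484 and 502 CPM with ligand. Its groups did not overlap, at log2 fold changes of -0.18 ± 0.04 (adjusted p = 0.00176, edgeR) and -0.26 ± 0.04 (adjusted p = 0.00012, edgeR). Apc was higher (0.25 and 0.17), both values passing the test. Gsk3b (-0.17 and -0.08) and Dvl2 (-0.19 and -0.08) were lower by adjusted p without ligand and not called with it. Dvl3 (0.05 and 0.04) was not called. Axin1 was listed at 0 in scramble -PDGF-AA replicate 3 and scramble +PDGF-AA replicate 2 and at 16 to 129 counts in the remaining libraries, although 0.063% of its 31-base sequences were shared with other genes, so its values (-0.12 ± 0.97 and 0.61 ± 1.01) are uncertain.

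Of the nuclear genes, 4 were tested and none changed by 2-fold, where 5.75% of all genes did without ligand and 5.42% with it. None of 4 is thus near the background. Tcf7l1, a Tcf factor that often represses Wnt targets and the most abundant of the 4 per length, read 79.2, 80.3 and 68.5 CPM in scramble -PDGF-AA and 79.9, 85.5 and 85.2 CPM in shSrsf3 -PDGF-AA cultures. With ligand it read 62.0, 78.1 and 65.7 CPM against 79.5, 81.9 and 81.3 CPM. The groups overlapped without ligand (log2 fold change 0.14 ± 0.08, adjusted p = 0.165, edgeR) but not with it (0.24 ± 0.08, adjusted p = 0.025, edgeR). Tcf7 (-0.44 and -0.30) and the β-catenin partner Bcl9 (-0.28 and -0.13) were lower by adjusted p without ligand only, and Tcf7l2 (-0.02 and 0.16) was called in neither. For no nuclear gene did the test of the difference between the 2 conditions pass, and it passed for only 0.0133% of all genes.

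**Figure D4:**
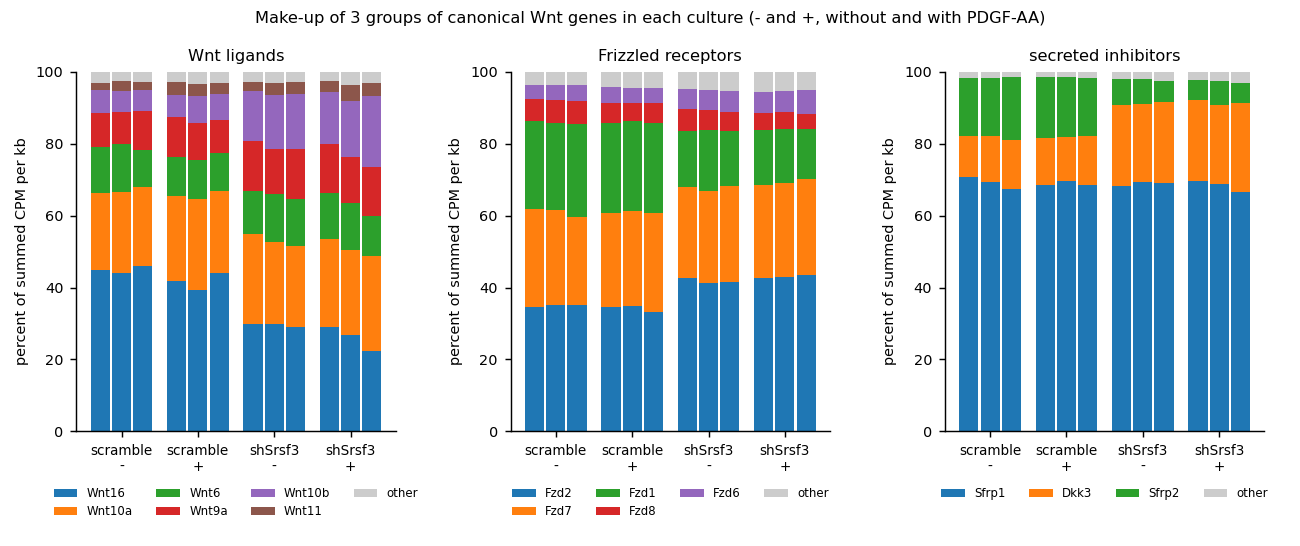
Share of the summed CPM per kb of exon taken by each gene within the Wnt ligands, Frizzled receptors and secreted inhibitors among the 53 genes, with 1 bar per culture. Genes with a mean share under 3% are pooled as other. Wnt16 takes 45.0% of the ligands in scramble -PDGF-AA and 29.6% in shSrsf3 -PDGF-AA cultures, Fzd1 24.9% and 16.0% of the receptors, and Sfrp2 16.7% and 6.59% of the inhibitors.

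Treatment with PDGF-AA for 1 hr changed few of these genes, a share near that of all genes tested. In scramble cultures it was 4.26% against 4.04% by adjusted p. PDGF-AA binds a receptor tyrosine kinase of the mesenchyme, and the comparison asks which transcripts move within that time. In scramble cultures 2 of the 47 genes were called by adjusted p, 1 higher and 1 lower, against 2.00% higher and 2.04% lower of all genes tested. By the 2-fold rule there were none, against 0.0931% and 0.106%. At an unadjusted p under 0.05 there were 11, against 17.6% of all genes, and DESeq2 called 4 by adjusted p, against 5.83%, and 0 by the 2-fold rule, against 0.193%. In shSrsf3 cultures none was called by edgeR, where 0.426% of all genes were higher and 0.140% lower, or 0.0399% and 0% by the 2-fold rule. There, 3 had an unadjusted p under 0.05, against 9.44% of all genes, and DESeq2 called 1, Fzd8, against 1.42%.

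Fzd8 was the receptor that fell upon ligand stimulation, from 54.0, 56.9 and 53.1 CPM in scramble -PDGF-AA cultures to 42.7, 40.1 and 41.3 CPM in scramble +PDGF-AA cultures. In shSrsf3 cultures it read 42.1, 38.3 and 37.3 CPM without ligand and 34.7, 31.5 and 25 CPM with it. All +PDGF-AA cultures lay below all -PDGF-AA cultures of the same line. The log2 fold change was -0.40 ± 0.08 in scramble (adjusted p = 0.0165, edgeR) and -0.36 ± 0.09 in shSrsf3 cultures (adjusted p = 0.1, edgeR), and the interaction test of the difference between them did not pass (0.04 ± 0.12, adjusted p = 0.966, edgeR). The call in scramble cultures was lost without scramble -PDGF-AA replicate 2 or without scramble +PDGF-AA replicate 3, at log2 fold changes of -0.37 and -0.40, and without the 3 libraries of lower mapping rate, at -0.34.

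Dvl1, 1 of the 3 Dishevelled genes, read 55.5, 56.1 and 56.9 CPM in scramble -PDGF-AA and 63.3, 62.5 and 62.2 CPM in scramble +PDGF-AA cultures. In shSrsf3 cultures it read 62.5, 60.8 and 63.8 CPM without ligand and 62.6, 62.9 and 64.3 CPM with it. The scramble -PDGF-AA cultures were the lowest, and the remaining groups overlapped one another. The rise with ligand was small in scramble cultures (log2 fold change 0.16 ± 0.03, adjusted p = 0.0207, edgeR) and did not pass the test in shSrsf3 cultures (0.02 ± 0.03, adjusted p = 0.927, edgeR), and the interaction had an adjusted p of 0.847. Dvl1 was higher in shSrsf3 than in scramble cultures without ligand (0.15 ± 0.03, adjusted p = 0.00297, edgeR), a comparison that shares the scramble -PDGF-AA cultures. The call for ligand was lost without scramble -PDGF-AA replicate 1 or 2 or scramble +PDGF-AA replicate 1 or 3, at log2 fold changes of 0.15, 0.16, 0.15 and 0.16. It was also lost without the 3 libraries of lower mapping rate (0.14, adjusted p = 0.18), with no filter on low counts (adjusted p = 0.0507) and with only the 2 groups compared (adjusted p = 0.0882).

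The interaction of shRNA and PDGF-AA was called for none of the 47 genes, where 0.0133% of all genes tested were called. With an unadjusted p under 0.05 there were 3 (Dkk2, Dvl1 and Fzd2), a share near the 5.54% of all genes, and DESeq2 called 0 by adjusted p, against 0.173%. Each of the 13 genes with a 2-fold change between the lines had a PDGF-AA effect that did not pass the test in either line. Of all genes tested, only 4.04% passed in scramble and 0.565% in shSrsf3 cultures, so this says little about the 13. Their log2 fold changes ran from -0.22 for Wnt16 and Wnt2 to 0.48 for Notum in scramble cultures. In shSrsf3 cultures they ran from -0.24 for Wnt16 to 0.93 for Frzb. Without the filter on low counts, edgeR called Wnt16 in scramble (adjusted p = 0.0131) and Fzd1 in shSrsf3 cultures (adjusted p = 0.0335). Wnt16 was also called in scramble cultures without shSrsf3 +PDGF-AA replicate 3 (adjusted p = 0.0425, edgeR).

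**Figure D5:**
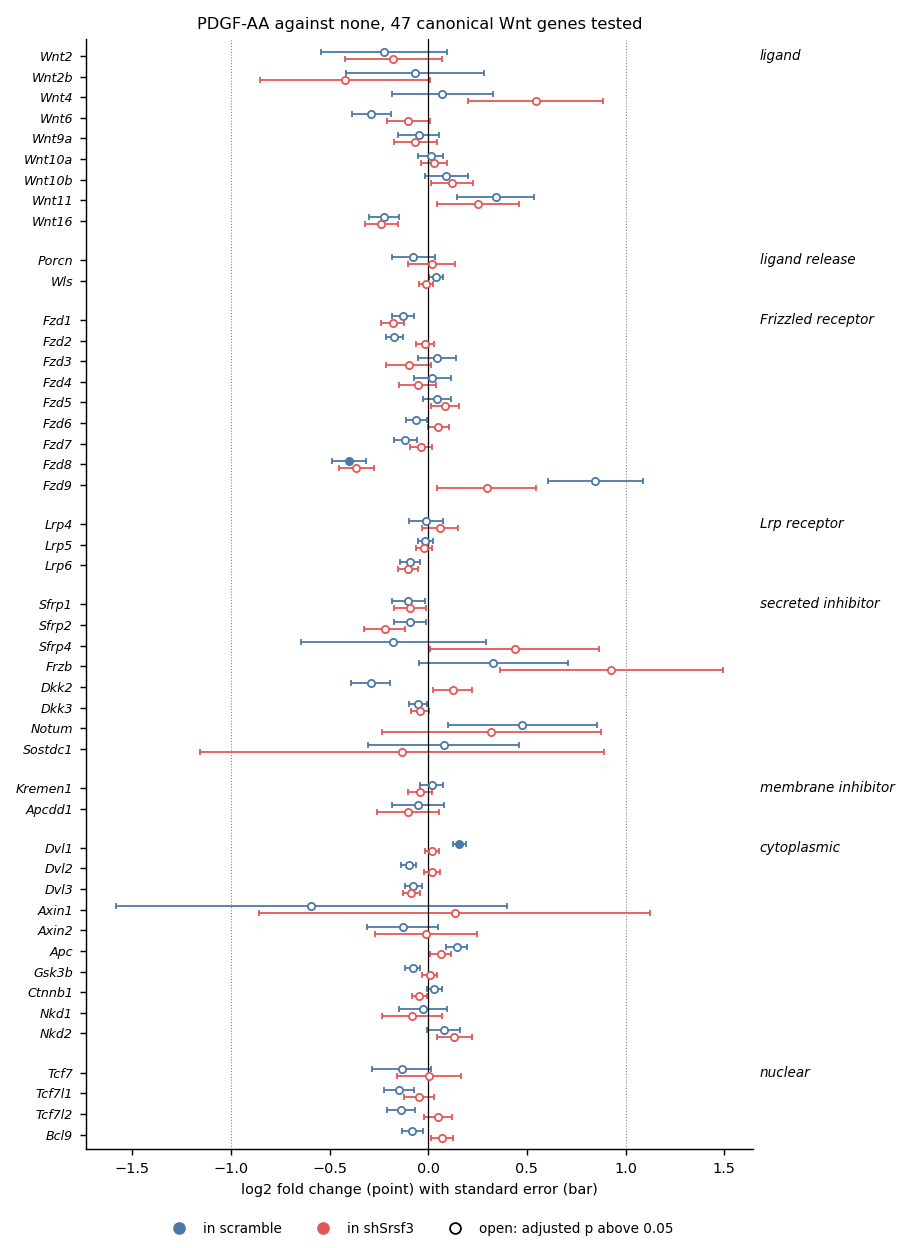
Log2 fold change of PDGF-AA against none for the 47 genes tested, by role, in scramble (blue) and shSrsf3 (red) cultures. Bars are standard errors, filled points have an adjusted p of 0.05 or less, and dotted lines mark a 2-fold change. The filled points are Fzd8 at -0.40 and Dvl1 at 0.16, both in scramble cultures.

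Beyond these genes, a list of 68 other Wnt pathway genes had 57 tested, of which 10 were higher and 22 lower in shSrsf3 cultures without ligand, and 8 higher and 20 lower with it. The corresponding shares of all genes were 22.2% and 23.7%, and 20.3% and 20.7%. By the 2-fold rule 7 were called without and 6 with ligand, against 5.75% and 5.42% of all genes. Of these, 6 were called in both, for which the share of all genes was not computed. Lgr5, a receptor for R-spondins, which strengthen Wnt signaling, had the largest change, from 5.82, 6.16 and 6.13 CPM in scramble to 0.155, 0.182 and 0.107 CPM in shSrsf3 -PDGF-AA cultures. Its log2 fold changes were -5.27 ± 0.18 and -5.11 ± 0.20. The related Lgr6 was the 1 gene of the 6 that was higher (1.99 and 1.92), from 2 to 9 counts in each scramble library.

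Wnt5b, a ligand that mostly acts outside the β-catenin branch, was lower (-1.73 and -1.50), as was Frat1, a Gsk3 binding protein (-2.05 and -1.50). Dact2, a Dishevelled binding protein, was lower (-1.93 and -1.44), as was Rnf43 (-1.58 and -1.27), a ligase that removes Frizzled receptors and is a Wnt target. A list of 25 canonical Wnt target genes, 7 of which are among the 53 genes, had 19 tested. Of these, 4 were higher and 12 lower without ligand, and 4 higher and 10 lower with it, with median log2 fold changes of -0.44 and -0.30. The list was chosen with earlier results of these data known and shares 7 genes with the 53, so its counts are not independent. Of all genes, 22.2% were higher and 23.7% lower without ligand and 20.3% and 20.7% with it, so the 4 of 19 that were higher are near the background. By the 2-fold rule 6 were lower without and 7 with ligand and none was higher. Of all genes, 2.76% and 2.57% were lower and 2.99% and 2.85% higher by that rule. Axin2, Nkd1, Notum, Apcdd1, Lgr5 and Rnf43 were called in both. The first 4 are among the 53 genes, and Lgr5 and Rnf43 are also in the list of other Wnt pathway genes. The 6 called in both thus add no gene to those already described, and Notum entered the test through the scramble libraries. The target gene called with ligand alone is not named here.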

How the data were processed

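RNA-seq was measured in 12 libraries from 4 groups of 3 cultures. The authors quantified transcripts with Salmon 1.4.0, using the GENCODE M26 transcripts of GRCm39, and tximport gave sums per gene, and the deposited values are expected counts per gene, of which 16.3% are not whole. They were rounded to whole numbers. Genes were filtered with filterByExpr (minimum count 10), scaled by TMM and tested with the edgeR quasi-likelihood test (edgeR 4.0.16, R 4.3.3), with 1 mean per group over all 12 libraries and Benjamini-Hochberg adjustment over 15037 genes. Calls were made at an adjusted p of 0.05 or less, with or without a change of 2-fold or more. The fit was tested on simulated data. Lengths, positions and the 250-base windows came from GENCODE M39 and the GRCm39 genome. Values in every culture are given for genes called by the 2-fold rule, genes called for PDGF-AA and the highest per length in each role. The members and all gene lists were chosen with earlier results of these data known. Replicate numbers did not pair the cultures, and no 2 libraries of a group agreed within sampling noise. Intervals cover counting error only.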

Additional observations from a re-analysis of the deposited data

How the results depend on the processing

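In the comparisons of shSrsf3 with scramble, the members called by adjusted p numbered 29 to 33 without ligand and 25 to 31 with it, and by the 2-fold rule 11 to 12 and 11 to 13, over other scaling, DESeq2, no filter, thinning, only the 2 groups compared, 9 libraries and each library left out. Among the 13 genes with a 2-fold change, Fzd8 and Dvl1, no call changed direction. Axin1, not called with all libraries, moved from a small decrease without ligand to a log2 fold change of 9.01 with 9 libraries. It then entered the 2-fold count without ligand, where Apcdd1 (-0.79) and Notum (-0.59) fell short of 2-fold. The median with PDGF-AA was -0.21 with no filter, where more members of low count enter. Leaving out 1 library gave 30 to 33 and 25 to 30 by adjusted p. For PDGF-AA in scramble cultures, the 2 calls became 4 with DESeq2, 4 with no filter, 1 with the 2 groups only and 1 with 9 libraries, and 0 to 5 with 1 library left out (0 without scramble -PDGF-AA replicate 2 or scramble +PDGF-AA replicate 3). The 1 call with 9 libraries was Axin1, also 1 by the 2-fold rule, where the remaining scramble -PDGF-AA library held 0 counts and its spread was taken from the other groups. For PDGF-AA in shSrsf3 cultures, the 0 calls became 1 with DESeq2, 2 with no filter and 0 to 1 with 1 library left out. The interaction had 0 calls throughout. With the replicate block the calls were 32 and 30 by adjusted p and 12 and 13 by the 2-fold rule between the lines, 3 for PDGF-AA in scramble and 0 in shSrsf3 cultures. The numbers share no animal or batch in the labels, and the deviations of same-numbered cultures correlated at -0.14 to 0.20. Notum, Frzb and Sostdc1 rest on mean counts of 9.75, 10.6 and 14.8 per library. The fold minimum of 1.5 gave 16 and 15 calls between the lines. The restriction to a mean count of 50 was chosen after seeing the data.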
